A study of Mus musculus with 36 samples.

Results

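The macrophage genes described here are 36 mouse genes that are widely used as markers of macrophages or that carry out their main tasks: surface receptors and integrins, receptors for antibodies and for dying cells, complement components, lysosomal enzymes, lipid-handling proteins and regulators. Members were found by matching each intron in the per-library tables to the introns of the GENCODE M21 annotation (mouse build mm10). Of the 36 genes, 35 had at least 1 listed intron, 319 introns in all, among 31890 genes with a listed intron in the whole series. Ccr2, the receptor by which monocytes follow the chemokine Ccl2, had no listed intron and has no value. The level of a gene is its number of reads spliced across its introns, summed over the introns and given on the per-million-reads scale (CPM, of all spliced reads of the library). A gene with many introns gives a larger sum than one with few, so levels are compared within a gene and never between genes.

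Polyadenylated RNA came from C57BL/6 mice deficient in Zrsr2 (KO) and from wild-type (WT) mice. Zrsr2 is X-linked and encodes a protein of the minor spliceosome, which removes the rare U12-type introns. Bone marrow cells without lineage markers but with the receptor Kit on their surface (Lin-Kit+) were cultured and carried a hairpin RNA against the related gene Zrsr1, either sh1 or sh10, or a control hairpin. They came from KO or WT mice in 2 experiments, with 1 library per group and experiment, 12 in all, so that KO cells with sh1 or sh10 combine loss of Zrsr2 with a hairpin against Zrsr1, and WT cells with sh1 or sh10 carry that hairpin alone. Embryonic fibroblasts (MEF) were grown from 3 KO and 3 WT male embryos. Megakaryocyte-erythroid (MEP), granulocyte-monocyte (GMP) and common myeloid (CMP) progenitors were sorted from 3 KO mice and 3 WT male littermates, with 1 library per mouse and cell type. The labels give no age, no design of the Zrsr2 allele and no number of mice behind a Lin-Kit+ culture, and nothing says that the 2 experiments used separate mice, so p-values reflect the spread of these libraries, which may be technical.

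Libraries held 30481450 to 43345548 spliced counts in Lin-Kit+ cells, 43514139 to 61124920 in MEF and 44083233 to 84832431 in the progenitors. Zrsr2 stood at 0 to 0.0800 CPM in KO progenitors against 23.8 to 34.2 CPM in WT progenitors, and at 0 to 0.460 CPM in KO MEF against 23.7 to 28.7 CPM in WT MEF. In KO Lin-Kit+ cells it was 0.0887 to 1.52 CPM, against 19.2 to 25.9 CPM in WT Lin-Kit+ cells. Zrsr1 has no annotated intron, so the depth of its knockdown was not measured. The defining markers of the labelled cells were present: Col1a1 at 22200.0 to 34400.0 CPM in MEF, Klf1 at 76.9 to 105 CPM in MEP, Elane at 2450.0 to 3580.0 CPM in GMP and Kit at 427 to 537 CPM in CMP. Kit was also at 332 to 633 CPM in MEP, so it does not single out CMP. The cultured cells held Kit at 133 to 469 CPM and Csf1r, the receptor for the macrophage growth factor, at 482 to 1030.0 CPM.

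Macrophages arise from monocytes or from embryonic precursors and are specialised in engulfing particles, microbes and dying cells and digesting them in lysosomes. They sense growth factors through Csf1r, recognise targets through scavenger, lectin, Fc and complement receptors, and export the cholesterol of what they digest with the help of apolipoproteins under the control of liver X receptors. Immature myeloid progenitors express few of these genes, and progenitors placed in culture can mature into macrophages. In RNA from a mixed population, fewer cells of a type and less RNA per cell cannot be told apart.

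In cultured Lin-Kit+ cells, most macrophage genes stood higher with either Zrsr1 hairpin than with the control hairpin of the same genotype and experiment. With the experiment as a replicate block, the mean of sh1 and sh10 was higher than the control in 23 of 33 tested members in KO cells and in 20 of 33 in WT cells, and lower in none (edgeR's quasi-likelihood test, Benjamini-Hochberg adjustment over 17828 genes, adjusted p under 0.05). Over all tested genes 4.62% were higher in KO cells and 4.64% in WT cells, while 4.38 and 4.11% were lower. Since the members were chosen with earlier results of these data known, these shares describe the set and do not test it. The median log2 change of the members was 1.24 in KO and 0.84 in WT cells, against -0.0098 and -0.033 over all tested genes. Cd163 and Timd4 did not pass the filter on low counts.

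Without the block the same test called none of the 17828 genes, and so none of the members, in either genotype (0% in KO and 0% in WT cells). At an unadjusted p under 0.05 it then held 8 members and 7.21% of genes in KO cells and 6 members and 7.43% of genes in WT cells. The lowest adjusted p of a member without the block was 0.195 in KO and 0.186 in WT cells, both for Itgam. DESeq2 without a block called 5 of 33 members in KO and 4 in WT cells, with 2.13 and 2.12% of genes. The number of members called with the block was 12 in KO cells without the control library of experiment 2 and 13 in WT cells without theirs, and 12 to 27 and 13 to 20 over all libraries left out in turn. Adjusted p-values below are from the blocked test unless stated, and within each pair of levels experiment 1 precedes experiment 2.

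**Figure D1:**
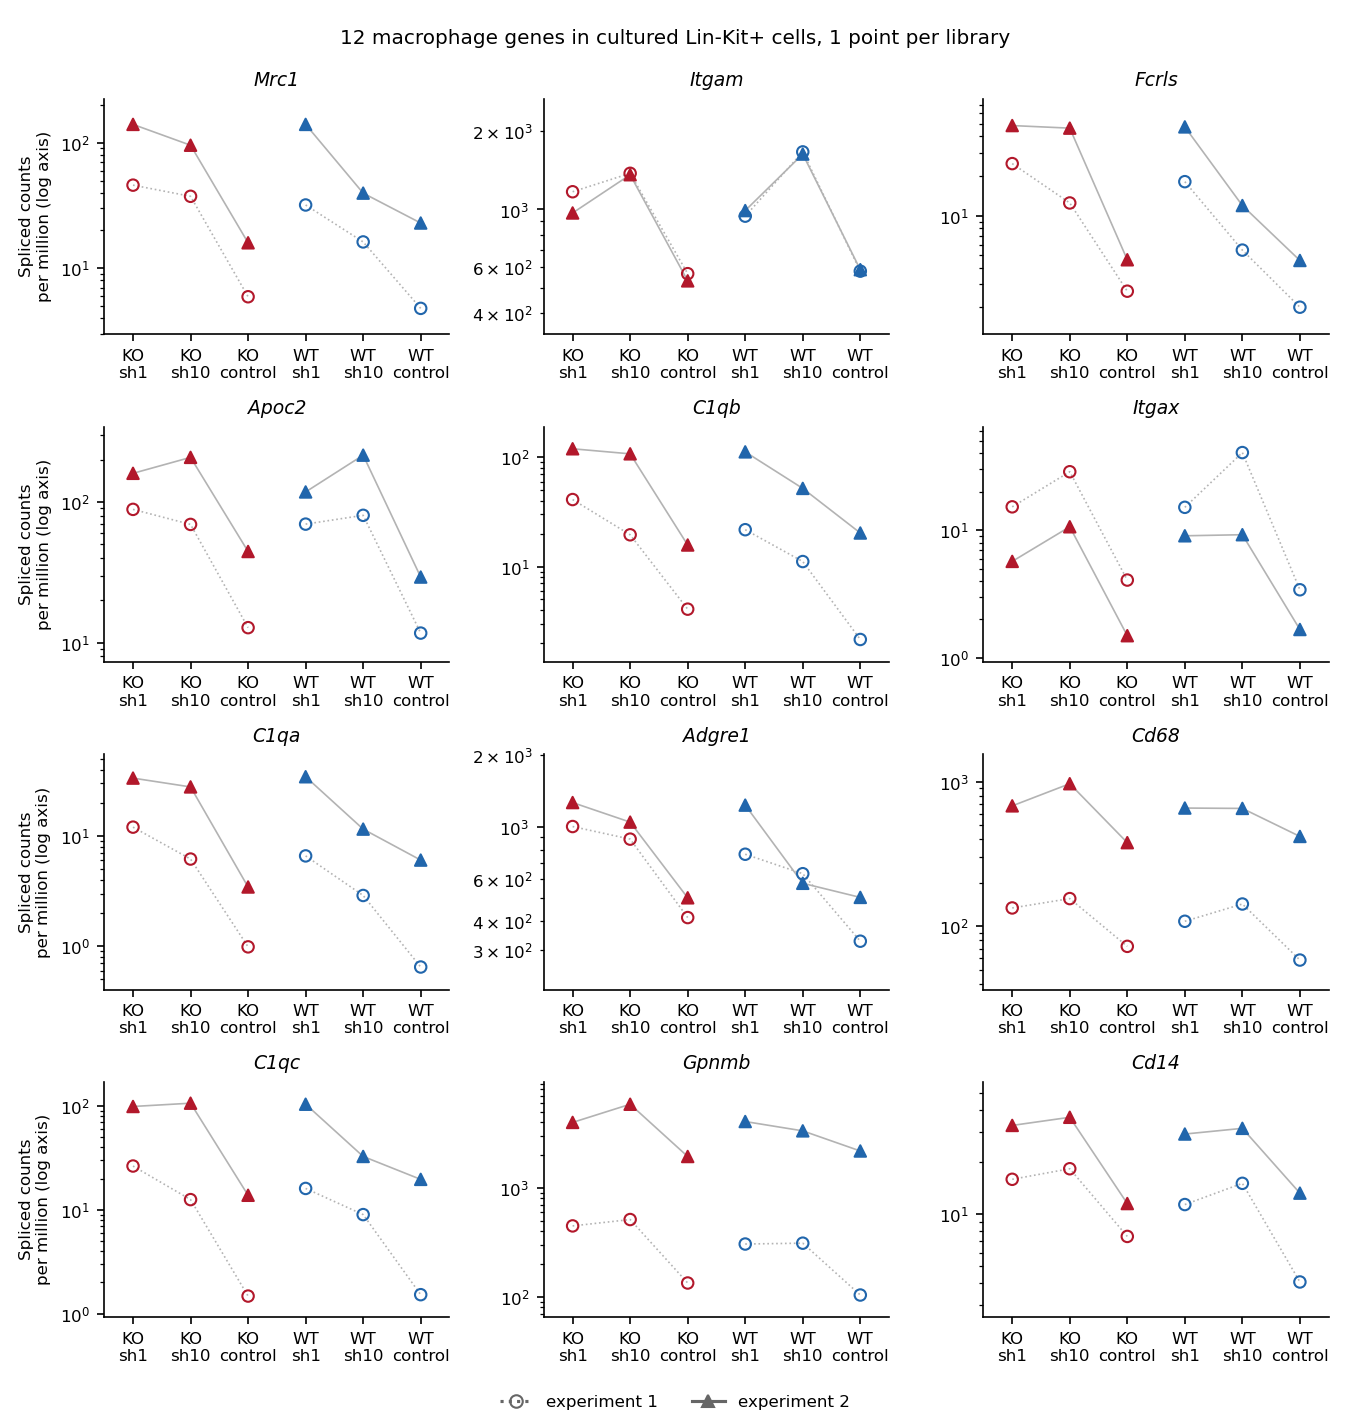
Level of 12 macrophage genes in each of the 12 cultured Lin-Kit+ libraries, in CPM of spliced reads on a log axis, for KO cells (red) and WT cells (blue) with sh1, sh10 or the control hairpin; circles are experiment 1 and triangles experiment 2, joined within an experiment. In every panel each hairpin point lies above the control point of its own genotype and experiment, while the 2 experiments differ in level for most genes.

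Among the surface receptors, Mrc1, the mannose receptor that binds sugars of microbes and of glycoproteins (chr2:14229392-14332057), had 45.9 and 139.8 CPM with sh1 and 37.4 and 95.4 CPM with sh10 in KO cells, against 5.94 and 16.0 CPM with the control hairpin. In WT cells it had 31.9 and 139.8 CPM with sh1, 16.2 and 39.7 CPM with sh10 and 4.799 and 22.9 CPM with the control hairpin. All 4 KO hairpin libraries lay above both KO controls, whereas in WT cells sh10 in experiment 1 lay below the control of experiment 2. Its log2 change was 2.92 in KO cells (SE 0.21, adjusted p = 2.70e-04) and 2.06 in WT cells (SE 0.20, adjusted p = 8.01e-04). Adgre1, which encodes the F4/80 antigen used to identify mouse macrophages (chr17:57358691-57483527), had 1000.5 and 1263 CPM with sh1 and 885 and 1044 CPM with sh10 in KO cells, against 413 and 500.1 CPM with the control hairpin, and the groups did not overlap. Its WT levels were 764 and 1232 CPM with sh1, 632 and 576 CPM with sh10 and 328 and 502 CPM with the control hairpin. The WT groups did not overlap either, and sh10 in experiment 2 was the hairpin library nearest to its control. Adgre1 rose by 1.28 in KO cells (SE 0.14, adjusted p = 0.00152) and 1.03 in WT cells (SE 0.14, adjusted p = 0.00347) on the log2 scale. Fcrls, an Fc receptor-like scavenger receptor of mouse macrophages and microglia (chr3:87250758-87263738), had 24.9 and 48.4 CPM with sh1 and 12.5 and 46.3 CPM with sh10 in KO cells, against 2.66 and 4.61 CPM with the control hairpin. The WT cells gave 18.1 and 47.3 CPM with sh1, 5.46 and 11.9 CPM with sh10 and 2.01 and 4.55 CPM with the control hairpin. Both genotypes had every hairpin library above both controls. The fitted log2 change of Fcrls was 3.17 in KO cells (SE 0.27, adjusted p = 6.21e-04) and 2.45 in WT cells (SE 0.26, adjusted p = 0.00135).

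Itgam encodes CD11b, the integrin chain of complement receptor 3 on macrophages, monocytes and neutrophils (chr7:128062640-128118491). It had 1169.6 and 969 CPM with sh1 and 1377 and 1359.6 CPM with sh10 in KO cells, against 567 and 532 CPM with the control hairpin. In WT cells the values were 942 and 990.1 CPM with sh1, 1664 and 1632 CPM with sh10 and 579 and 587 CPM with the control hairpin. Control levels were nearly alike in the 2 experiments, and every hairpin library of either genotype lay above all 4 controls. The log2 change was 1.23 in KO cells (SE 0.10, adjusted p = 6.05e-04) and 1.22 in WT cells (SE 0.10, adjusted p = 5.51e-04), the smallest SE among the members. Of its 29 introns, 27 are also assigned to the readthrough gene Gm49368 on the same strand, and reads of the 2 cannot be told apart. Itgax, its neighbour on chromosome 7, encodes CD11c of complement receptor 4, carried by some macrophages and by dendritic cells (chr7:128129547-128150657). Its KO levels were 15.2 and 5.69 CPM with sh1, 28.7 and 10.6 CPM with sh10 and 4.07 and 1.49 CPM with the control hairpin. WT cells showed 15.1 and 9.04 CPM with sh1, 40.5 and 9.21 CPM with sh10 and 3.41 and 1.67 CPM with the control hairpin. The hairpin libraries of both genotypes were all above the controls, and the higher levels were in experiment 1. Itgax rose by 2.46 in KO cells (SE 0.28, adjusted p = 0.00183) and 2.80 in WT cells (SE 0.29, adjusted p = 0.00113) on the log2 scale. When the median intron of each gene was used in place of the sum, the KO change of Itgax had an adjusted p of 0.103.

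Cd68, a glycoprotein of lysosomal membranes that is a general marker of macrophages (chr11:69664213-69666153), had 134 and 682 CPM with sh1 and 155 and 971 CPM with sh10 in KO cells, against 72.5 and 379 CPM with the control hairpin. In WT cells there were 108 and 659 CPM with sh1, 143 and 655 CPM with sh10 and 58.3 and 419 CPM with the control hairpin. The levels of experiment 2 lay far above those of experiment 1, so the groups overlapped when experiments were mixed and separated within each experiment. The log2 change was 1.14 in KO cells (SE 0.13, adjusted p = 0.00204) and 0.97 in WT cells (SE 0.13, adjusted p = 0.00360). Cd14, the coreceptor for bacterial lipopolysaccharide, had 15.9 and 32.7 CPM with sh1 and 18.3 and 36.4 CPM with sh10 in KO cells, against 7.45 and 11.5 CPM with the control hairpin. Its WT levels were 11.4 and 29.1 CPM with sh1, 15.1 and 31.4 CPM with sh10 and 4.06 and 13.3 CPM with the control hairpin. KO cells with either hairpin lay above both KO controls, whereas in WT cells sh1 in experiment 1 lay below the control of experiment 2. Cd14 rose by 1.47 in KO cells (SE 0.20, adjusted p = 0.00325) and 1.52 in WT cells (SE 0.20, adjusted p = 0.00281) on the log2 scale, with an adjusted p of 0.0502 in KO cells when the control library of experiment 2 was left out.

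The receptors that recognise dying cells and sugars moved less evenly. Mertk, a receptor kinase for the uptake of dying cells, rose by 1.51 in KO cells (adjusted p = 0.0231) and had a log2 change of 0.67 in WT cells (adjusted p = 0.256). Siglec1, the sialic acid receptor sialoadhesin, rose by 1.24 in KO and 1.10 in WT cells (adjusted p = 0.0204 and 0.0331). The class A scavenger receptor genes Msr1 and Marco passed in neither genotype, with log2 changes of 0.53 and 0.49 for Msr1 and 0.30 and -0.13 for Marco in KO and WT cells. For Marco, the 6 libraries of experiment 2, at 3.52 to 24.6 CPM, all lay below the 6 of experiment 1, at 30.5 to 124 CPM. The share of all genes in that order was not counted. Clec7a, the beta-glucan receptor dectin-1, which the annotation calls a polymorphic pseudogene, had changes of -0.04 and -0.27. Cd163, the receptor for haemoglobin bound to haptoglobin, was at 0 to 0.591 CPM in the 12 libraries. Timd4, a phosphatidylserine receptor of resident macrophages, was at 0 in 11 of them, and Vsig4, a complement receptor of tissue macrophages, at 0 to 0.706 CPM. These 3 genes were at or near 0 in every cultured library.

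The receptors for the Fc part of antibodies were measured through Fcgr1, Fcgr3 and Fcgr4. None of the 3 passed in either genotype. Their log2 changes were 0.40, 0.47 and 0.48 in KO cells (adjusted p = 0.263, 0.0746 and 0.0986). In WT cells they were 0.25, 0.40 and 0.45 (adjusted p = 0.503, 0.124 and 0.124). DESeq2 with the block called Fcgr3 and Fcgr4 in both genotypes, where it called 14.4% of genes in KO and 14.4% in WT cells. Cx3cr1, the fractalkine receptor of monocytes and resident macrophages, lay on the other side: it was at 0.483 to 2.08 CPM in the 8 hairpin libraries and 0.807 to 3.97 CPM in the 4 controls. Its log2 change was -0.57 in KO (adjusted p = 0.630) and -1.10 in WT cells (adjusted p = 0.301). Its count rests on 1 listed intron.

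C1qa, C1qb and C1qc encode the 3 chains of C1q, which starts the classical complement pathway and is made mainly by macrophages. The 3 genes lie side by side on chromosome 4 (C1qa at chr4:136895917-136898803, C1qb at chr4:136880129-136886187 and C1qc at chr4:136889804-136893065), each with 2 listed introns. C1qa had 12.004 and 33.4 CPM with sh1 and 6.16 and 27.8 CPM with sh10 in KO cells, against 0.984 and 3.44 CPM with the control hairpin. In WT cells its levels were 6.58 and 34.4 CPM with sh1, 2.88 and 11.5 CPM with sh10 and 0.646 and 6.03 CPM with the control hairpin. C1qb had 41.1 and 120.0 CPM with sh1 and 19.5 and 108 CPM with sh10 in KO cells, against 4.07 and 15.7 CPM with the control hairpin. The pattern of C1qb resembled that of C1qa, with experiment 2 above experiment 1 in each group. In WT cells C1qb had 21.8 and 112 CPM with sh1, 11.1 and 52.0 CPM with sh10 and 2.15 and 20.3 CPM with the control hairpin. C1qc levels in KO cells were 26.4 and 98.9 CPM with sh1, 12.5 and 106 CPM with sh10 and 1.48 and 13.8 CPM with the control hairpin. WT levels of C1qc were 16.1 and 104 CPM with sh1, 8.99 and 32.7 CPM with sh10 and 1.52 and 19.6 CPM with the control hairpin. For all 3 chains each hairpin library lay above the control of its own genotype and experiment. In KO cells all hairpin libraries also lay above both controls for C1qa and C1qb, while for C1qc the control of experiment 2 lay above sh10 in experiment 1. In WT cells the groups overlapped for all 3, since the control of experiment 2 lay above sh10 in experiment 1 for each of them. The log2 change was 3.27 in KO cells (SE 0.34, adjusted p = 0.00121) and 2.20 in WT cells (SE 0.31, adjusted p = 0.00410) for C1qa. For C1qb it was 2.95 in KO cells (SE 0.30, adjusted p = 0.00117) and 2.39 in WT cells (SE 0.29, adjusted p = 0.00204). C1qc rose by 3.31 in KO cells (SE 0.39, adjusted p = 0.00207) and 2.27 in WT cells (SE 0.37, adjusted p = 0.00707).

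Because these genes moved together, their promoters were read from RefSeq (build GRCm38.p6), from 250 bases before to 50 bases after the start site. Of the 36 members, 28 had such a window, 34 windows in all. The letters GAGGAAG, on either strand, were in 12 of the 34 windows (11 members), against 13.6% of all 32851 windows of that length. GAGGAAG is a core sequence of sites of PU.1 (Spi1), a transcription factor of macrophages. The windows of Mrc1, Itgam, Fcrls and C1qc hold it and are shown with each match in capitals, on the opposite strand written as CTTCCTC. That of C1qb, which has none, is shown for comparison.
Mrc1 promoter (chr2:14229164-14229463, plus strand): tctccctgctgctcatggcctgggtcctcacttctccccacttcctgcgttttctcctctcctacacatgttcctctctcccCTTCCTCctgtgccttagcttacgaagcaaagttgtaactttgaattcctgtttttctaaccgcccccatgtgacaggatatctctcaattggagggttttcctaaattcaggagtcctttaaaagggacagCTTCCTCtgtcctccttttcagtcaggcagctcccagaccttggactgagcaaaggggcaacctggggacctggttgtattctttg
Itgam promoter (chr7:128062390-128062689, plus strand): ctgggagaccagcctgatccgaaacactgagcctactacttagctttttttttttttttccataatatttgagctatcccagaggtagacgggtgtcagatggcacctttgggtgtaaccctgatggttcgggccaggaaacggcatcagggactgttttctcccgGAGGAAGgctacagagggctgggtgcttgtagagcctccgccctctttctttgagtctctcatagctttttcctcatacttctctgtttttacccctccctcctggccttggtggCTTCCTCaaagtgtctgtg
Fcrls promoter (chr3:87263475-87263774, minus strand): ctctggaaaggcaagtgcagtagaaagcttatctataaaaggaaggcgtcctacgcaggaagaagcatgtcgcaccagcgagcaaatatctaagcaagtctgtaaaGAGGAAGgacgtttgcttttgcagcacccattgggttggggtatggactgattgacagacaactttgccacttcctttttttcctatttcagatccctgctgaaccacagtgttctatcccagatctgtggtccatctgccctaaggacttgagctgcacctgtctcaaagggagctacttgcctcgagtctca
C1qc promoter (chr4:136892865-136893164, minus strand): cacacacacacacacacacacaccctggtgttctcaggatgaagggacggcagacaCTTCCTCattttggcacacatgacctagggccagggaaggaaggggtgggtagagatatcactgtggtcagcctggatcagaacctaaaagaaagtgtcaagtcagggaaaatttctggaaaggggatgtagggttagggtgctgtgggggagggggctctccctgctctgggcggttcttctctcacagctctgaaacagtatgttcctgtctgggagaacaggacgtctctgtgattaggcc
C1qb promoter (chr4:136886151-136886450, minus strand): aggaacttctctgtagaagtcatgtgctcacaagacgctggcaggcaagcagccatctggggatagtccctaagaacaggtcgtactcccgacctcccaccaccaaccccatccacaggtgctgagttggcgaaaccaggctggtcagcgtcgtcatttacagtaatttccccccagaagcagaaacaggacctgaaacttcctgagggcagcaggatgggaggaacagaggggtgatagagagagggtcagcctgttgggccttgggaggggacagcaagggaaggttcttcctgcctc
The first base of the match lies 168 and 36 bases before the start site in Mrc1, 84 before and 31 after it in Itgam, 144 before it in Fcrls and 194 before it in C1qc. The other members with a match were Marco, Fcgr1, Fcgr3, Fcgr4, Ctss, Trem2 and Nr1h3. Other motifs searched on both strands, none of which contains GAGGAAG or lies within it, were CACGTG (an E-box bound by lysosomal regulators among others; 3 of 34 windows, against 7.15% of all), TGCTGA (a MAF site; 9 windows, against 19.5%), TGANTCA (AP-1; 4 windows, against 7.81%) and TTGCNNAA (C/EBP; 5 windows, against 10.8%). The E-box was in the windows of Ctsd, Ctsl and Lgmn and not in those of Ctss and Cd68, and its share of windows was near that of all windows. A match describes letters only, and members with and without one were among those called.

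**Figure D2:**
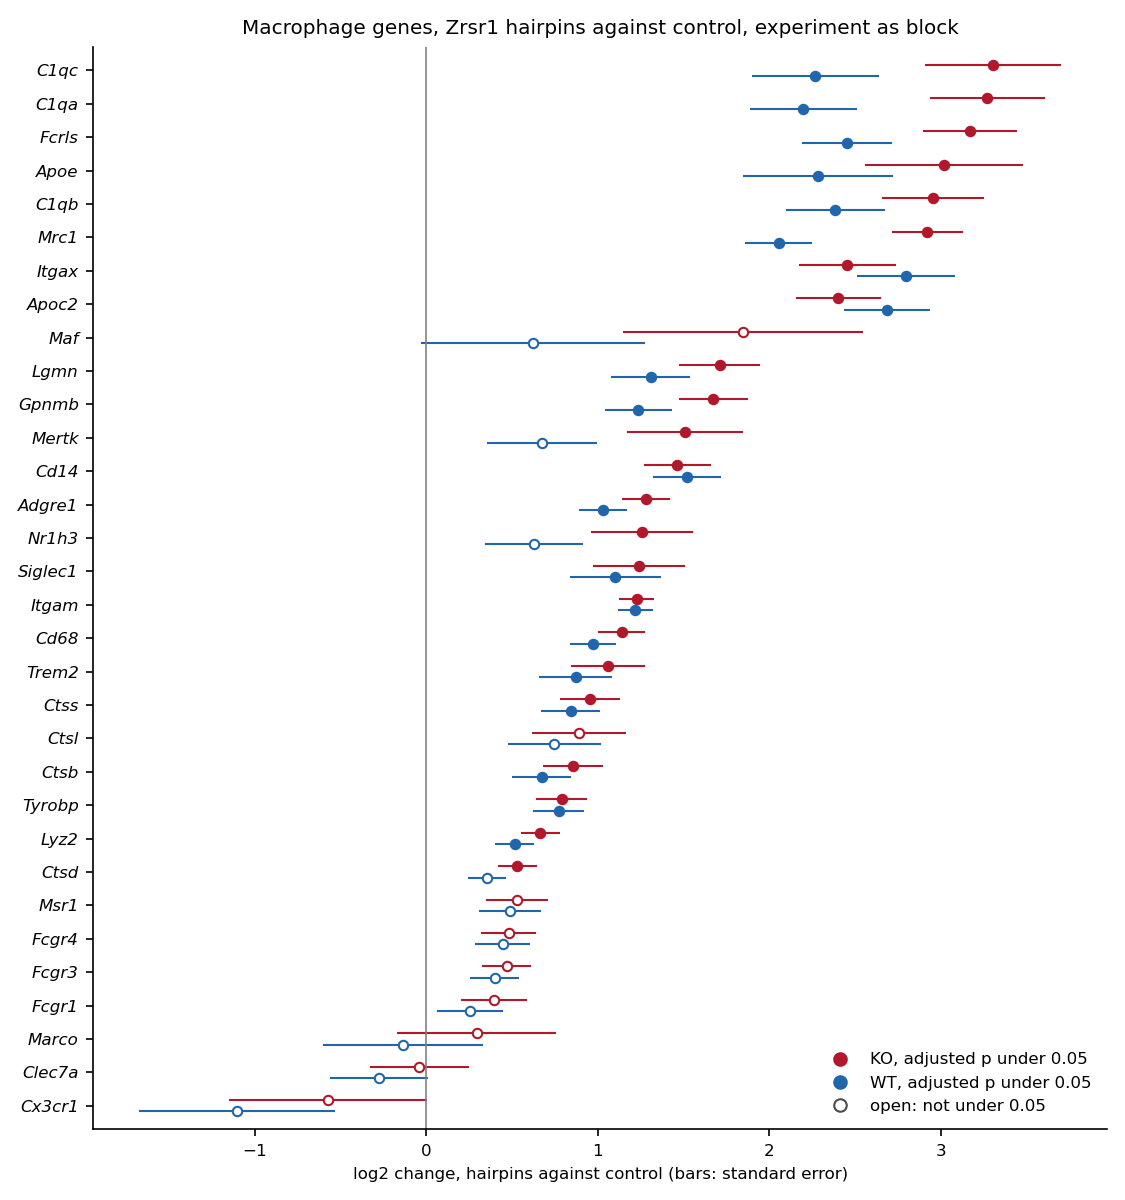
Log2 change of the mean of sh1 and sh10 against the control hairpin in KO (red) and WT (blue) Lin-Kit+ cells for 32 tested macrophage genes, with the experiment as a block; bars are standard errors, filled points have an adjusted p under 0.05. Vsig4, whose standard errors were 2.99 and 1.56, is left out. C1qc, C1qa and Fcrls have the highest KO values and Cx3cr1 the lowest.

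The lysosomal enzymes that rose had smaller log2 changes than C1q and Mrc1. On that scale Lyz2, the lysozyme that cuts bacterial cell walls, rose by 0.67 in KO and 0.52 in WT cells (adjusted p = 0.00832 and 0.0236); it has a near-copy in Lyz1, and reads could be split between them. Ctsb and Ctss, cathepsins that digest proteins and, for Ctss, trim antigen carriers, rose by 0.85 in KO and 0.67 in WT cells (adjusted p = 0.0164 and 0.0419) for Ctsb and by 0.96 in KO and 0.84 in WT cells (adjusted p = 0.0103 and 0.0179) for Ctss. Lgmn, an asparagine-specific protease that activates cathepsins, rose by 1.71 in KO and 1.31 in WT cells (adjusted p = 0.00356 and 0.00955). Ctsd, the aspartic cathepsin, rose by 0.53 in KO cells (adjusted p = 0.0189) and stood at 0.35 in WT cells (adjusted p = 0.0852). Ctsl, cathepsin L, passed in neither, at 0.89 in KO and 0.75 in WT cells (adjusted p = 0.0778 and 0.132). Of the 8 introns of Ctsd, 5 are also assigned to the gene Gm49369.

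Gpnmb, a glycoprotein of the lysosomes of active macrophages (chr6:49036546-49070929), had 446 and 3976 CPM with sh1 and 511 and 5839 CPM with sh10 in KO cells, against 134 and 1935 CPM with the control hairpin. WT cells had 304 and 4051 CPM with sh1, 309.9 and 3327 CPM with sh10 and 104 and 2174 CPM with the control hairpin. Its 2 experiments were further apart than hairpin and control, and within each experiment every hairpin library lay above its control. Gpnmb rose by 1.67 in KO cells (SE 0.20, adjusted p = 0.00207) and 1.24 in WT cells (SE 0.20, adjusted p = 0.00636) on the log2 scale.

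Among lipid-handling genes, Apoc2, the activator of lipoprotein lipase (chr7:19671579-19677941), had 88.7 and 160.2 CPM with sh1 and 69.3 and 208 CPM with sh10 in KO cells, against 12.8 and 44.5 CPM with the control hairpin. Its WT levels were 69.7 and 118 CPM with sh1, 80.5 and 216 CPM with sh10 and 11.7 and 29.2 CPM with the control hairpin. Each genotype had all 4 hairpin libraries above both controls. The log2 change of Apoc2 was 2.40 in KO cells (SE 0.25, adjusted p = 0.00125) and 2.69 in WT cells (SE 0.25, adjusted p = 8.01e-04). Of its 5 listed introns, 3 are also assigned to the gene Gm44805. Apoe, the lipid carrier that macrophages secrete, lies beside Apoc2 on chromosome 7 and rose by 3.02 in KO and 2.28 in WT cells (adjusted p = 0.00540 and 0.0134). Its KO levels were 71.1 and 1096 CPM with sh1, 19.1 and 1182 CPM with sh10 and 4.17 and 194 CPM with the control hairpin, and the control of experiment 2 was above all hairpin libraries of experiment 1. Apoe rests on 1 listed intron. Trem2, a receptor for lipids, and Tyrobp, the adaptor through which it signals, rose as well. Trem2 rose by 1.06 in KO and 0.87 in WT cells (adjusted p = 0.0160 and 0.0350). Tyrobp rose by 0.79 in KO and 0.77 in WT cells (adjusted p = 0.0118 and 0.0135).

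Of the transcription factors, 1 passed in KO cells and none in WT cells. Nr1h3, the liver X receptor alpha that switches on cholesterol export, rose by 1.26 in KO cells (adjusted p = 0.0286) and had a log2 change of 0.63 in WT cells (adjusted p = 0.230). Maf, a transcription factor of resident macrophages with 1 listed intron, was at 0.2999 to 3.29 CPM and had changes of 1.85 and 0.62 in KO and WT cells (adjusted p = 0.146 and 0.660).

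All 20 members called in WT cells were among the 23 called in KO cells, and Mertk, Ctsd and Nr1h3 were the other 3. A difference between genotypes in the size of the hairpin change was tested as an interaction. No member and no gene passed (0% of 17828 genes with the block), 2 members and 2.97% of genes had an unadjusted p under 0.05, and DESeq2 called no member. The interaction was positive in 30 of 33 members, with a median of 0.19 against 0.0028 over all genes. Those 2 members were Mrc1, at 0.87 (SE 0.26), and C1qa, at 1.07 (SE 0.41), each with an adjusted p of 1.

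Ratios of each hairpin library to the control of its own genotype and experiment, taken as log2(CPM + 0.5), describe the same libraries without a model. In KO cells 28 of 35 members were above the control in all 4 ratios, against 13.1% of the 17828 tested genes. In WT cells 23 of 35 were, against 11.8% of genes, and 23 were above in all 8 ratios, against 6.51%. The 2 ratios of an experiment share a control library, so they are not separate observations. Mrc1 spanned 5.83-fold to 8.53-fold in KO and 1.71-fold to 6.12-fold in WT cells. Apoe spanned 4.21-fold to 15.3-fold in KO and 2.44-fold to 10.3-fold in WT cells. Cx3cr1 was below the control in all 8 ratios, at 0.366 to 0.999 of its level, against 13.9% of genes, and was the 1 such member. In WT cells Cx3cr1 and Clec7a were below it in all 4 ratios, 2 of 35 members against 24.1% of genes.

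Levels also differed between the 2 experiments. For 12 members, all 6 libraries of experiment 2 lay above all 6 of experiment 1, against 4.58% of tested genes. They were Cd68, Fcgr1, Fcgr4, Ctsb, Ctss, Ctsd, Ctsl, Lgmn, Apoe, Gpnmb, Trem2 and Nr1h3. Gpnmb, for example, was at 104 to 511 CPM in experiment 1 and 1935 to 5839 CPM in experiment 2. Summed over the 35 members, the level in KO cells was 20499 and 39808 CPM with sh1, 20504 and 49447 CPM with sh10, and 13112 and 23847 CPM with the control hairpin. In WT cells it was 15902 and 38757 CPM with sh1, 15967 and 32510 CPM with sh10, and 11600.0 and 22692 CPM with the control hairpin. The sum amounted to 1.59 to 4.95% of spliced counts in hairpin libraries and 1.16 to 2.39% in control libraries. Genes with high counts weigh most in it. In the WT control library of experiment 1, Lyz2 alone held 6633 of the 11600.0 CPM.

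The hairpins were also set against each other. In WT cells, sh1 stood above sh10 in 5 of 33 members, Adgre1, Mrc1, C1qa, Ctsd and Fcrls (3.56% of genes were higher), and below it in 1, Itgam (2.56% of genes were lower), with the block. Fcrls, whose library values are given above, was 3.77-fold higher with sh1 (log2 1.91, SE 0.27, adjusted p = 0.00399). Mrc1 was 2.75-fold higher (log2 1.46, SE 0.21, adjusted p = 0.00399). Itgam was lower, at -0.72 (SE 0.11, adjusted p = 0.00639). Without the block none of these passed (0.112% of genes did), 1 member and 7.49% of genes had an unadjusted p under 0.05, and DESeq2 called Itgam and 2.94% of genes. With the block, none passed without the sh10 library of experiment 2 and 3 without the sh1 library of experiment 2. In KO cells no member passed with the block (1.87% of genes did) or without it, with 6 of 33 members at an unadjusted p under 0.05, near the 15.3% of all genes. DESeq2 with the block called 2 of 33 members in KO cells, Msr1 and Itgam, where it called 6.89% of genes. In WT cells it called 11 of 33, with 11.2% of genes. The other lists were read in the same blocked comparison. In WT cells 10 of 15 mature neutrophil markers were lower with sh1, while 9 of 13 mast cell and basophil markers and 8 of 15 erythroid markers were higher. Of 16 monocyte markers 3 were higher and 4 lower, of 22 complement and phagocytosis receptors 1 was higher and 5 lower, and of 13 megakaryocyte markers 4 were higher and 1 lower. Of 25 lysosomal genes 2 were higher, of 6 fibroblast markers 1 was higher, of 17 regulators 1 was lower and of 10 granulocyte precursor markers 1 was lower. In KO cells 6 of 15 erythroid, 2 of 13 megakaryocyte, 2 of 6 fibroblast and 1 of 13 mast cell and basophil markers and 1 of 25 lysosomal genes were higher with sh1, and 2 of 15 neutrophil markers and 2 of 22 complement and phagocytosis receptors lower. No gene of the lists left unnamed here passed. Their part in the differences between hairpins was not tested.

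Genes of related pathways and of other cell types moved as follows with the hairpins and the block. Of 25 lysosomal genes, 16 rose in KO and 11 in WT cells, among them Ctsh, a cathepsin, by 1.01 and 0.94, and Acp5, the acid phosphatase of macrophages and osteoclasts, by 2.33 and 1.17. Of 16 lipid-handling genes outside the member list, 9 rose in KO and 8 in WT cells, among them Pltp, a phospholipid transfer protein, by 2.35 and 2.01. Of 22 complement and phagocytosis receptors, 12 rose in KO and 11 in WT cells. Among them was Itgb2, the beta chain that pairs with Itgam and Itgax, which rose by 2.08 and 2.17 (adjusted p = 2.87e-05 and 1.97e-05). Of 17 regulators and growth factor receptors, 3 rose in KO cells (Csf2ra, Csf1 and Nr1h2) and 4 in WT cells (the same 3 and Spi1), and none fell.

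Of 13 tested dendritic cell markers, 6 rose in KO and 4 in WT cells, among them Cd74, the invariant chain of MHC class II (2.01 and 1.65) and H2-Aa, an MHC class II alpha chain (2.58 and 1.80). Of 16 monocyte markers, 2 rose and 1 fell in KO cells and 1 rose in WT cells. Mature neutrophil markers rose for 2 of 15 in KO and 4 of 15 in WT cells, among them Ngp, a granule protein (1.33 and 1.27). Their summed level was 7139 to 10251 CPM with sh1, 15876 to 40248 CPM with sh10 and 6749 to 12457 CPM with the control hairpin. Granulocyte precursor markers fell for 7 of 10 in KO and 3 of 10 in WT cells, with Ctsg, a granule protease, at -1.22 and -0.93, while Fcnb rose in both. Cell cycle genes fell for 15 of 18 in KO and 13 of 18 in WT cells, for example the mitotic kinase gene Aurkb at -0.92 and -0.79. Their summed level was 1811 to 4112 CPM with sh1, 1656 to 4260 CPM with sh10 and 2989 to 6036 CPM with the control hairpin. Mast cell and basophil markers rose for 2 of 13 in KO cells, and rose for 1 and fell for 2 in WT cells. Erythroid markers fell for 3 of 15 in WT cells and in none in KO cells, and 1 of 13 megakaryocyte markers and 1 of 10 lymphoid markers rose in KO cells, single genes where 4.62% of all genes rose. No tested fibroblast marker passed. The median log2 change was -0.64 in KO and -0.52 in WT cells for the cell cycle genes, and 0.56 and 0.48 for the lysosomal genes. For the dendritic cell markers it was 1.805 and 1.57, above the 1.24 and 0.84 of the macrophage genes. The lipid-handling genes had 0.90 and 0.83, and every list but the dendritic one lay below the macrophage genes in both genotypes. Summed monocyte markers were at 3933 to 7178 CPM with sh1, 5537 to 11642 CPM with sh10 and 5872 to 11164 CPM with the control hairpin. Summed dendritic cell markers were at 861 to 1721 CPM with sh1, 1044 to 1982 CPM with sh10 and 626 to 1211 CPM with the control hairpin. Kit, the receptor by which the cells were picked, was at 160.4 to 379 CPM with sh1, 133 to 224 CPM with sh10 and 172 to 469 CPM with the control hairpin. Csf1r was at 578 to 1026 CPM with sh1, 701 to 872 CPM with sh10 and 482 to 674 CPM with the control hairpin. The part of these shifts in the levels of the macrophage genes was not tested.

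**Figure D3:**
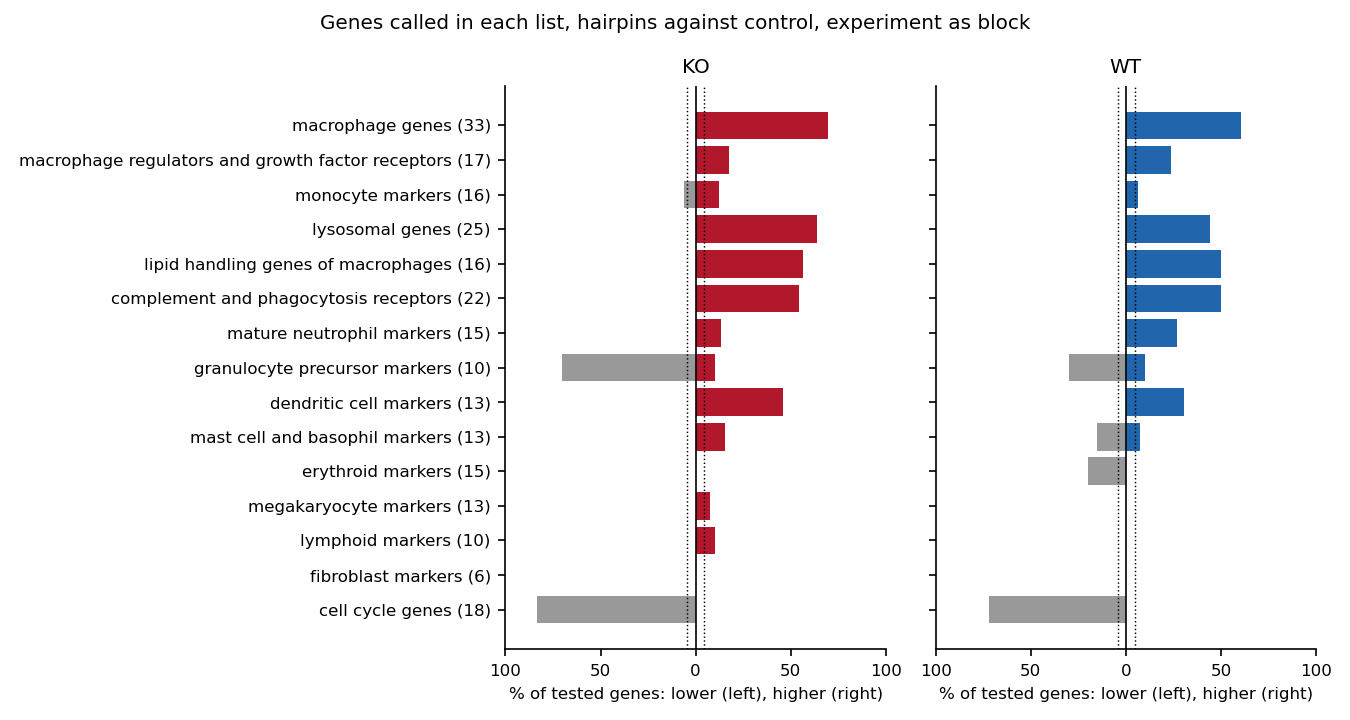
Share of the tested genes of each list that were higher (coloured, right) or lower (grey, left) with the Zrsr1 hairpins than with the control hairpin, in KO cells (red) and WT cells (blue), with the experiment as a block; the number of tested genes stands in brackets and dotted lines mark the share over all 17828 tested genes. Macrophage genes have 23 and 20 of 33 higher, and cell cycle genes 15 and 13 of 18 lower. The members and lists were chosen with earlier results of these data known.

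Loss of Zrsr2 alone was compared in each cell type. Under the control hairpin, no member passed in Lin-Kit+ cells between KO and WT (0% of genes passed, and 0.00561% with the block). No member passed in CMP (0.0228% of genes passed), GMP (0.0171%), MEP (0.0456%) or MEF (0%) in edgeR's test either. Zrsr2 itself passed in CMP, GMP and MEP. It missed the threshold in MEF (log2 change -6.54) and in the control-hairpin cells (-4.77, and -4.84 with the block). In MEF and control-hairpin cells the test thus missed a large change, and a member without a call there is not shown to be unchanged. At an unadjusted p under 0.05 there were 4 of 30 members in CMP (5.92% of genes), 3 of 30 in MEP (4.41%) and none in GMP (2.55%), MEF (1.58%) or the control-hairpin cells (0.886%). DESeq2 called Siglec1 in CMP (0.285% of genes) and in MEP (0.45%) and no member elsewhere. Siglec1 was at 0.885, 1.35 and 0.542 CPM in KO CMP, against 0.168, 0.0774 and 0.0159 CPM in WT CMP. In MEP it was at 0.688, 0.937 and 0.253 CPM in KO, against 0.0610, 0.0304 and 0 CPM in WT. Its groups did not overlap in either cell type, at low levels in every library, and edgeR gave a log2 change of 3.36 in CMP (adjusted p = 0.819) and 4.26 in MEP (adjusted p = 0.322). Of the 35 measured members, the KO and WT libraries did not overlap for 2 in CMP (12% of tested genes), 3 in GMP (6.9%), 2 in MEP (6.5%), 1 in MEF (5.44%) and 2 in the control-hairpin cells (17.4%).

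In MEF no difference between genotypes passed the test, and libraries of the same genotype lay far apart. Summed, they made up 0.858, 0.644 and 1.83% of spliced counts in the KO libraries numbered 4, 5 and 6, against 0.518, 1.35 and 2.17% in the WT libraries of those numbers. Of the 30 members with at least 10 counts in all 6 libraries, 28 were highest in KO library 6 among the KO libraries and 29 in WT library 6 among the WT libraries, against 34.3 and 35.1% of 14879 genes. All 30 were lowest in WT library 4, against 34.0% of genes. Adgre1 was at 81.7, 167 and 604 CPM in KO MEF, against 61.9, 288 and 761 CPM in WT MEF. Lyz2 was at 1848, 1620.1 and 6002 CPM in KO, against 812, 4102 and 7689 CPM in WT. The log2 change between genotypes was negative in 29 of 33 tested members with a median of -0.37, against -0.011 over all genes, and no member had an unadjusted p under 0.05. Csf1r was at 131 to 562 CPM in KO and 97.1 to 742 CPM in WT MEF. The fibroblast marker Pdgfrb was at 418 to 657 CPM in KO and 370.0 to 505 CPM in WT MEF.

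**Figure D4:**
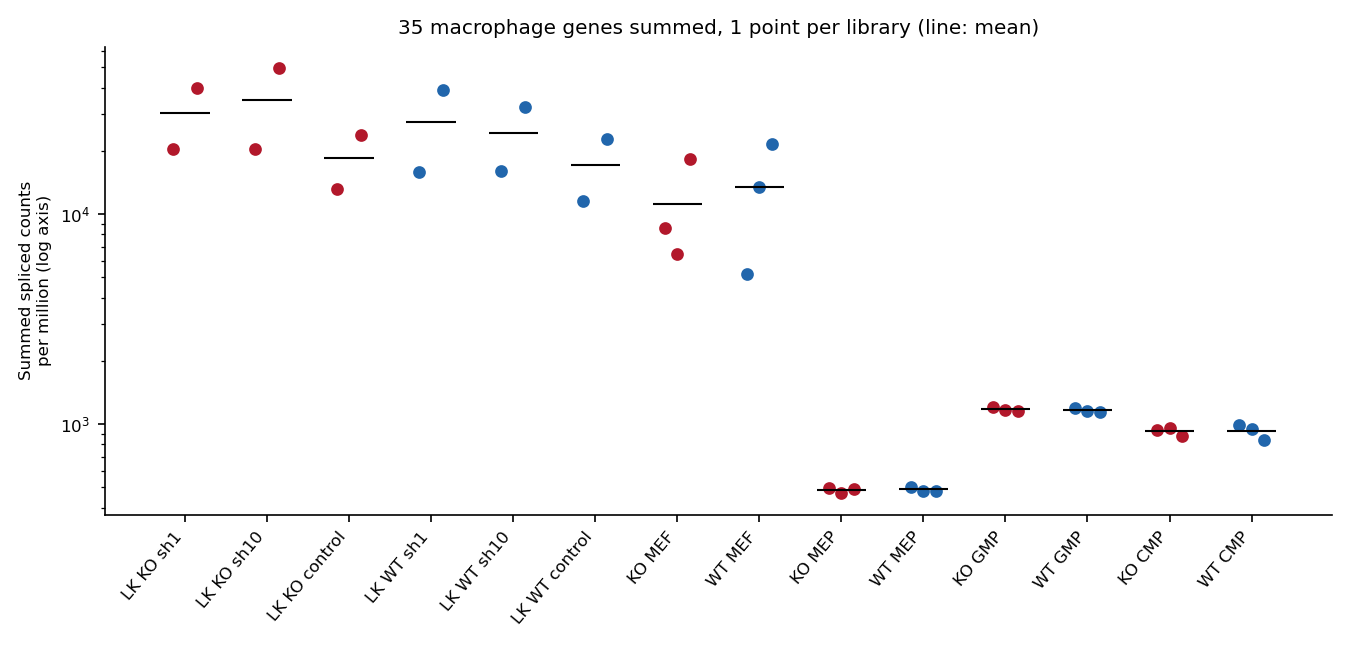
Summed level of the 35 measured macrophage genes in each of the 36 libraries, in CPM of spliced reads on a log axis, KO in red and WT in blue, with the mean of each group as a line (LK: cultured Lin-Kit+ cells). Cultured cells range from 11600.0 to 49447 CPM, MEF from 5179.9 to 21663 CPM and progenitors from 468 to 1211 CPM. The cultured cells came from another library kit than MEF and progenitors and were not tested against them. Genes with high counts weigh most in each sum.

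WT MEF held more of most members than the WT progenitors, taken as the mean of CMP, GMP and MEP: 29 of 34 tested members were higher (38.9% of genes were) and 3 lower (29.4% of genes were). The median log2 difference of the members was 5.67, against 0.17 over all genes. Ctsl was at 652, 921 and 935 CPM in MEF, against 32.7, 35.8 and 31.0 CPM in MEP, 22.4, 20.9 and 21.2 CPM in GMP and 19.1, 25.0 and 19.3 CPM in CMP. It rose by 5.23 on the log2 scale (SE 0.13, adjusted p = 3.25e-17). Lgmn was at 309, 643 and 989.6 CPM in MEF and no more than 22.4 CPM in any WT progenitor library, and rose by 8.60 (SE 0.44, adjusted p = 1.13e-12). Msr1 was at 29.7, 94.3 and 118 CPM in MEF and at most 0.259 CPM in WT progenitors, and rose by 10.93 (SE 0.55, adjusted p = 1.03e-12). Fcrls, Mrc1 and the C1q genes were at 12.8 CPM or more in every WT MEF library and under 2 CPM in every WT progenitor library. The 3 lower members were Cd163, Itgax and Clec7a. Levels in Lin-Kit+ cells came from another library kit and were not tested against these.

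Among the WT progenitors, GMP held more of 8 members than CMP (12.5% of genes were higher) and less of 5 (12.3% of genes were lower), of 30 tested. The higher ones were Adgre1, Cd68, Fcgr3, Fcgr4, Itgam, Ctsb, Ctsd and Tyrobp, and the lower ones Cd163, Itgax, Ctss, Lgmn and Apoe. Fcgr3, the low-affinity receptor for antibody complexes, was at 127, 132 and 118 CPM in GMP, against 2.63, 10.5 and 2.70 CPM in CMP, and rose by 4.71 (SE 0.48, adjusted p = 1.86e-06). Ctsb was at 251, 269.6 and 244 CPM in GMP, against 162, 153 and 143 CPM in CMP, and rose by 0.87 (SE 0.08, adjusted p = 3.62e-07). Apoe went the other way, at 13.6, 15.1 and 16.8 CPM in GMP, against 113, 100.3 and 118 CPM in CMP, with a log2 change of -2.73 (SE 0.28, adjusted p = 1.93e-06). None of the 3 had overlapping groups.

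MEP held less of 18 members than CMP (25.5% of genes were lower) and more of 1, Ctsl (21.2% of genes were higher). Against GMP, MEP held less of 18 (24.8% of genes) and more of 2, Ctsl and Apoe (21.1% of genes). The members had a median log2 difference of -2.83 against CMP and -3.44 against GMP, with -0.051 and -0.032 over all genes. Ctss was at 0.793, 0.653 and 0.729 CPM in MEP, against 17.6, 16.1 and 16.0 CPM in GMP and 50.3, 46.0 and 31.2 CPM in CMP. Its log2 change in MEP was -5.73 against CMP and -4.51 against GMP (adjusted p = 6.62e-11 and 1.72e-10). Tyrobp was at 3.71, 3.10 and 2.66 CPM in MEP, against 164, 189.7 and 196 CPM in GMP and 114, 154 and 88.1 CPM in CMP, with changes of -5.10 against CMP and -5.86 against GMP (adjusted p = 7.23e-11 and 6.51e-12). Cd68 was at 2.44, 2.05 and 1.61 CPM in MEP, against 19.2, 23.2 and 27.2 CPM in GMP and 16.5, 19.0 and 14.1 CPM in CMP, with changes of -2.89 and -3.51 (adjusted p = 8.42e-09 and 5.91e-10). MEP was the lowest of the 3 cell types in each of these genes, and the comparisons share their MEP libraries. Cd163 had its highest levels of the series in CMP, at 12.7 to 16.3 CPM in KO and 12.5 to 14.7 CPM in WT.

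**Figure D5:**
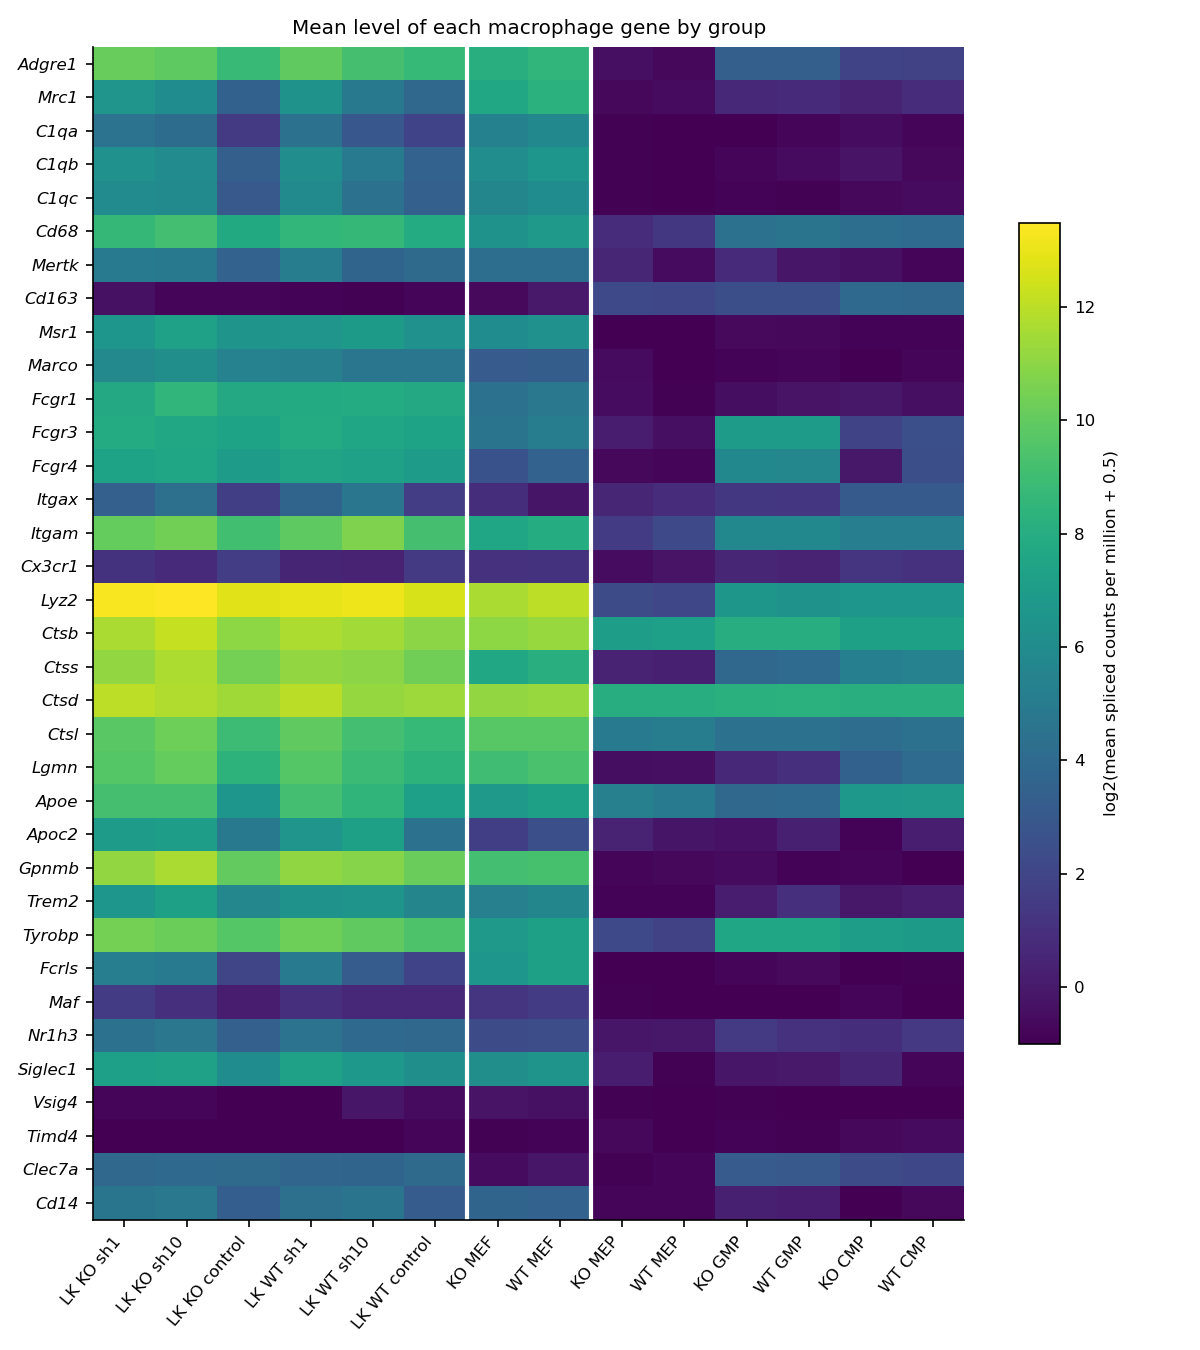
Mean level of each of the 35 measured macrophage genes in each group, as log2(mean CPM + 0.5), in cultured Lin-Kit+ cells (LK), MEF and sorted progenitors. Fcrls, Mrc1 and the C1q genes are dark in all progenitors and brighter in MEF and in cultured cells, including those with the control hairpin. Cd163 is brightest in CMP. Cultured cells came from another library kit than MEF and progenitors and were not tested against them.

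The tables also count reads across exon-intron boundaries, which report unspliced RNA. Retention, the percentage that exon-intron reads make up of themselves plus 2 times the spliced reads, summed over the introns of a gene, is given here for the cultured cells. Itgam was at 1.72 to 2.69% in KO cells with a hairpin, against 1.54 to 2.25% with the control hairpin. Adgre1 was at 1.03 to 1.11% in KO cells with a hairpin, against 1.02 to 1.12% with the control hairpin. Siglec1, at 2.65 to 6.29% over the 12 libraries, and Cd14, at 5.61 to 19.6%, were higher. Cd163 was at 48.1% or more in each library, beside at most 0.591 CPM of spliced reads. In CMP, where it was highest, Cd163 had 644 or more spliced reads per library and was still at 60.0 to 63.9% in KO and 60.8 to 64.6% in WT. The ranges of hairpin and control libraries overlapped for Itgam and Adgre1, and no test was made.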

How the data were processed

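Each of the 36 deposited tables lists introns of 1 library on mouse build mm10, per the submitters' processing notes; no source used here names the aligner or the counting tool. Per the file headers, the authors deposited whole-number read counts per intron, spliced across it and at its 2 boundaries. They also deposited a covered fraction and a percent of unspliced reads, equal to 100 times boundary reads over boundary reads plus 2 times spliced reads; the fraction was not used. Per the labels, a TruSeq kit was used for CMP, GMP, MEP and MEF and an NEBNext Ultra kit for Lin-Kit+ cells, so these were fitted apart. Nothing given states strand, and reads of overlapping genes cannot be told apart.

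All 219945 listed introns matched GENCODE M21, and spliced counts were summed per gene. Genes were kept by edgeR's filterByExpr (minimum count 10), scaled by TMM and tested with edgeR 4.0.16 quasi-likelihood tests in R 4.3.3 (limma 3.58.1), with Benjamini-Hochberg adjustment over all tested genes and a threshold of 0.05. The design without a block was the main one; the experiment block was its alternative. Deviations from group means correlated at 0.321 to 0.420 in all 30 Lin-Kit+ library pairs of the same experiment. With 2 libraries per group, each value of experiment 2 repeats that of experiment 1 and adds no evidence. Experiments were taken to pair the libraries, and blocked values stand beside the others. Alternatives were DESeq2 1.42.0, other size factors, no filter, the median intron count and leaving out each library. Scripts were tested on simulated data and used Python 3.11.15, pandas 2.3.3 and numpy 2.4.6.

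Values in every library are given for up to 12 members with the smallest p among those called in the hairpin comparisons, here with the block since none was called without it, and for up to 3 in each other comparison. Of the other lists, up to 3 called genes each could be named. Siglec1, Adgre1, Lyz2 and Apoe in further comparisons, and the ranges of uncalled members, were chosen after their values were seen. The members and lists were chosen with earlier results of these data known.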

Additional observations from a re-analysis of the deposited data

How the results depend on the processing

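Of the 39 log2 changes of named members, 27 come from fits with the experiment as a replicate block. Without that block all 27 missed the threshold (adjusted p = 0.186 to 0.986, edgeR) and none reversed. Under the other alternatives, each in the fit that named the change, the 39 kept direction and side of the threshold in 405 recalculations, passed it no longer in 6, and reversed in none. The 6 were Itgax in KO cells with the median intron count (2.22, adjusted p = 0.103), Cd14 in KO cells without a control library (1.18, adjusted p = 0.0502), and, for sh1 against sh10 in WT cells, Fcrls (1.86, adjusted p = 0.0527), Mrc1 (1.24, adjusted p = 0.0545) and Itgam (-0.69, adjusted p = 0.0714) without sh10 in experiment 2 and Itgam (-0.67, adjusted p = 0.0544) without sh1 in experiment 1, all by edgeR's test with the block. Counts of members called moved more. Without a block, hairpins against control gave 0 in KO and 0 in WT cells, but 1 and 4 with no filter on low counts and 5 and 4 by DESeq2. With the replicate block (experiment), 23 and 20 were called, and sh1 against sh10 in WT cells gave 6, against 0 without it. DESeq2 called 1 for sh1 against sh10 in WT cells without the block, and with it 2 in KO and 11 in WT cells. For KO against WT, DESeq2 called 1 member in CMP and 1 in MEP. The cause of these differences was not tested.

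Leaving out each library in turn gave, with the block, 12 to 27 members for hairpins against control in KO cells, 13 to 20 in WT cells, 0 to 1 for sh1 against sh10 in KO cells (1 without KO sh10 in experiment 1) and 0 to 5 in WT cells. It gave 10 to 13 members for GMP against CMP, 17 to 20 for MEP against CMP, 18 to 21 for MEP against GMP and 31 to 34 for MEF against progenitors, and 0 to 0 in the other comparisons. A group left with 1 library was assumed to vary like the others. Not every pair of KO and WT samples with the same number correlated above 0.1 in its deviations (correlations of 0.0107 to 0.0359 in CMP, -0.00687 to 0.0422 in GMP, 0.0323 to 0.101 in MEP and -0.0769 to 0.381 in MEF), and a block on that number called 0 members in each. Progenitors of the same mouse correlated at -0.0416 to 0.0843, and the mouse as a block left 13 members called for GMP against CMP. No paired analysis was possible for MEF against progenitors because these come from different animals. With 1 library per group and experiment, the number of libraries limits precision in culture. Zrsr1 was not measured, and Cd163, Timd4, Vsig4 and Maf had counts near 0 there.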
